A study of Rattus norvegicus with 241 samples.

Results

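Sorted ACI luminal progenitors were the cells of 6 luminal single-cell libraries of ACI rat mammary gland that were picked by 9 transcripts. A cell was taken where KIT (a receptor tyrosine kinase of progenitor cells), ELF5 (the transcription factor of the milk lineage), BTN1A1 (butyrophilin, a protein of the milk fat globule membrane) and MUC15 (a membrane mucin) together gave at least 2 unique molecular identifiers (UMIs, each standing for 1 captured transcript molecule). Their sum also had to be at least 4 times that of CITED1, PRLR, NPTX2, AGTR1A and FCGBP, which mark mature luminal cells. This took 2180 of the 6882 cells in the 6 libraries, while the 39 single-cell tables of the series held 160052 cells. Mature luminal cells were taken from the same libraries by the same rule with both sums exchanged, which gave 3639 cells.

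The rats were virgin females of the inbred ACI strain, about 35 days old at the start, and each library came from 1 rat. Rats ACI12, ACI15 and ACI16 received LY2157299 (TGFBRi), an inhibitor of the TGF-beta receptor kinase, by oral gavage at 75 mg/kg, 2 times daily for 10 days, and rats ACI7, ACI8 and ACI9 received the vehicle. Glands were collected on day 0, when dosing ended, dissociated and sorted by CD24 and CD29 into a luminal and a basal fraction. Sprague Dawley (SD) rats, an outbred stock dosed in the same way from about 24 days of age, served as comparison, with 3 vehicle and 6 TGFBRi rats and 11321 luminal progenitors by the same rule. No label gave a preparation or sequencing batch, so treatment and any such batch cannot be told apart.

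Luminal progenitors line the mammary duct beside mature, hormone-sensing luminal cells, and in pregnancy they give rise to the alveolar cells that make milk. TGF-beta ligands bind the receptors TGFBR2 and TGFBR1, whose kinase phosphorylates SMAD2 and SMAD3, and in the mammary gland this pathway restrains growth of the duct and early milk production. The comparison of TGFBRi with vehicle rats addressed how short inhibition of this pathway around puberty left the transcripts of these cells at the end of dosing.

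The 4 selecting markers were widely detected among the members, which is a consequence of the rule and was not tested. KIT had a UMI in 80.5% of the members and 3.96% of the mature luminal cells, ELF5 in 76.3% and 3.90%, BTN1A1 in 90.4% and 5.08%, and MUC15 in 79.7% and 3.98%. All 4 markers were found in 1056 members (48.4%), 3 of them in 717, 2 in 343 and 1 in 64. Among genes outside the rule, the milk protein transcripts WAP, CSN3 and CSN1S1 were higher in the members than in mature luminal cells by 6.05, 5.75 and 5.46 on the log2 scale (mean over the 6 rats), and AREG, the estrogen-induced growth factor of mature luminal cells, stood at -5.87 on this scale. Just inside the lower limit lay 109 cells with a marker sum of 2, and just outside it 87 cells with a sum of 1. Other genes known from luminal progenitors, listed without the 4 markers, reached 110 and 153 per 10000 UMIs in these bins, so the limit did not separate cells of low from cells of high progenitor expression. A further 978 cells met the first condition but not the ratio. These cells held a median of 17722.5 UMIs and carried other mature luminal genes at 35.6 per 10000, against 2.73 to 4.20 in the member bins. The label therefore rests on the milk protein transcripts and AREG, which stand outside the rule. The selecting markers and the contrast with the cells that failed the ratio follow at least in part from the rule. PRLR, also a gene of the rule, had a UMI in 32.4% of the members.

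The members numbered 297, 219 and 535 in the vehicle rats ACI7, ACI8 and ACI9, and 380, 420 and 329 in the TGFBRi rats ACI12, ACI15 and ACI16. They made up 33.9%, 21.7% and 48.5% of the sorted luminal cells in vehicle rats and 24.5%, 34.7% and 29.2% in TGFBRi rats. The groups overlapped, with means of 34.7% ± 13.4 and 29.4% ± 5.09 (SD, n = 3 each), and the difference of -5.23 percentage points had an exact two-sided permutation p of 0.7, where 0.1 is the smallest that 3 against 3 rats can give. The UMIs summed over the members of a rat ranged from 1987889 to 6003158. The median member held 15384, 8266 and 9805 UMIs in vehicle rats and 6426, 9652 and 9273 in TGFBRi rats. The rule took 0.233% to 0.798% of the cells in the basal sort of the same rats. The authors had already removed cells that clustered with the other sort, so this share was lowered in advance. Any 2 of the 12 sorted ACI libraries shared 0 to 3 cell barcodes, and 12 members had a barcode that also stood in another of these libraries. PTPRC, the pan-leukocyte gene on which sorted cells had been filtered, was at 0 in the members of every ACI rat. Of the genes that mark fibroblasts, endothelium and leukocytes, 3, 2 and 3 passed the filter on low counts, and among them FLT1, LAPTM5 and CD74 gave most of the UMIs. COL3A1, a fibroblast collagen, was called higher in TGFBRi rats on 1 vehicle and 12 TGFBRi UMIs. It reached the filter only through the TGFBRi rats, so the filter favoured its call. FLT1, an endothelial receptor, was higher at 82.05, 93.6 and 105.5 CPM against 69.7, 69.8 and 63.8 CPM in vehicle rats (0.47 ± 0.16, edgeR adjusted p = 0.0166). The summed lists lay at 0.0117 to 0.0250, 0.780 to 0.823 and 0.119 to 0.292 per 10000 UMIs in vehicle rats and at 0.0290 to 0.0681, 0.795 to 0.926 and 0.134 to 0.145 in TGFBRi rats. The fibroblast sums did not overlap between the groups, and their part in the results was not tested.

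TGFBRi and vehicle rats differed in many genes. Of 11850 genes tested over the summed UMIs of each rat, 3141 (26.5%) passed an adjusted p of 0.1 in edgeR, with 1656 (14%) higher and 1485 (12.5%) lower in TGFBRi rats. The values of 4350 genes (36.7%) did not overlap between the groups. These shares are the background against which each gene list below is to be read. Levels are given as CPM, the UMIs of a gene per 1000000 UMIs of the library, scaled by the trimmed mean of M-values (TMM). Differences are log2 values of TGFBRi minus vehicle from edgeR, each printed with the standard error of DESeq2 where an error follows it. The median difference over all tested genes was -0.05. The 10 most abundant genes took 17.5%, 16.6% and 18.1% of the UMIs of the members in TGFBRi rats and 11.8%, 12.9% and 13.3% in vehicle rats. Without scaling for this, the median difference moved to -0.39 and the calls to 485 higher and 4214 lower, so each direction here is relative to the bulk of the genes.

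**Figure D1:**
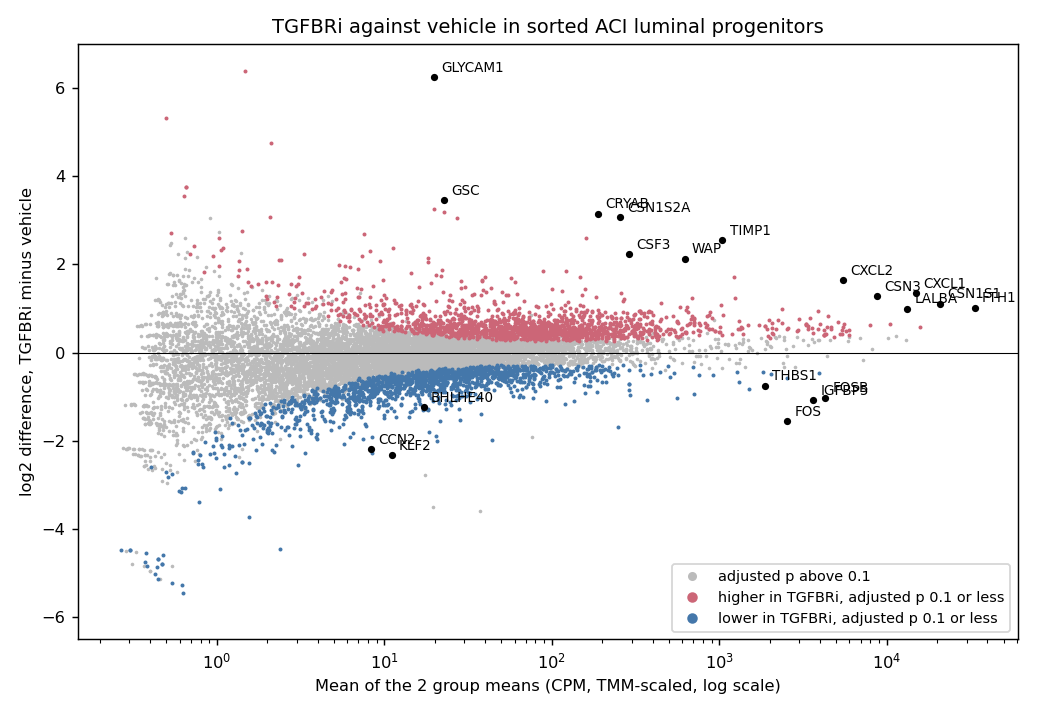
Each point is 1 of 11850 tested genes in ACI luminal progenitors, with its mean level on the x axis (CPM, log scale) and its log2 difference, TGFBRi minus vehicle, on the y axis. Red and blue points are the 1656 higher and 1485 lower genes, and black points carry names, among them GLYCAM1 at 6.24, TIMP1 at 2.55 and CCN2 at -2.19.

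The transcripts of milk proteins rose together. Of the 12 genes in the milk protein list 10 passed the filter on low counts, and these 10 were called higher in TGFBRi rats, with a median log2 difference of 1.56 against -0.05 over all genes. The 10 include OLAH, an enzyme of fatty acid synthesis and not a milk protein, which also counts in the summed list and the promoter search below. GLYCAM1 and LPO, with 7 and 3 UMIs in all vehicle rats, reached the filter's 10 UMIs only through the TGFBRi rats, so the filter favoured their calls. CSN1S1, which encodes alpha-S1 casein, stood at 12377, 12897 and 14301 CPM in vehicle rats and at 24443, 23822 and 37162 CPM in TGFBRi rats. The groups did not overlap, and the log2 difference was 1.11 ± 0.17 with an adjusted p of 0.00301. LALBA, the alpha-lactalbumin that completes lactose synthase, had 8549, 9444 and 8678 CPM against 17371, 15930 and 19744 CPM. It was higher by 0.99 ± 0.13 on the log2 scale (adjusted p = 0.00163). CSN3, kappa casein, which keeps the casein micelle in solution, had 5730, 4062 and 5558 CPM against 10754, 11809 and 14776 CPM. Here too every TGFBRi rat lay above every vehicle rat, with a difference of 1.28 ± 0.16 (adjusted p = 0.00123).

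Milk protein genes differed in the size of their response. WAP, the whey acidic protein, stood at 262, 157 and 273 CPM in vehicle rats and at 979, 782 and 1288 CPM in TGFBRi rats, a log2 difference of 2.13 ± 0.20 (adjusted p = 0.000605). CSN1S2A, an alpha-S2-like casein, had 28.2, 96.6 and 47.8 CPM against 347, 336 and 688 CPM. Its lowest TGFBRi rat lay far above its highest vehicle rat, and the difference was 3.07 ± 0.61 (adjusted p = 0.000794). GLYCAM1, a secreted mucin-like milk protein, was close to 0 in vehicle rats at 0.515, 0.938 and 0.29 CPM, which was 7 UMIs in all, and reached 18.6, 10.4 and 87.8 CPM in TGFBRi rats. Its log2 difference of 6.24 ± 1.14 (adjusted p = 0.00175) rested on few vehicle UMIs. CSN2, beta casein, overlapped between the groups, since vehicle rat ACI9 held 87.7 CPM and TGFBRi rat ACI15 76.8 CPM, but passed the test with 1.84 ± 1.09 (adjusted p = 0.0525). CSN1S2B, the other alpha-S2-like casein, had 271, 268 and 312 CPM against 291, 467 and 578 CPM, which overlapped, and was higher by 0.65 (adjusted p = 0.0347). Both calls depended on single rats, since CSN2 did not pass without ACI7, ACI8, ACI12 or ACI16 (adjusted p from 0.104 to 0.185) and CSN1S2B not without ACI15 or ACI16 (0.1022 and 0.149). CSN2 also did not pass with DESeq2 (adjusted p = 0.214). OLAH, the thioesterase that ends medium-chain fatty acid synthesis, was higher by 0.66 ± 0.15.

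Prolactin acts on milk genes through STAT5, which binds sites of the form TTCNNNGAA, a motif that reads the same on both strands. The motif was searched in the promoters of RefSeq (rat build GRCr8), where it was present in 2382 of 27457 promoters (8.68%) and in 5 of the 10 milk protein genes that matched. The 250 bases before the start are shown for these 5 genes, CSN1S1, CSN1S2A, CSN1S2B, CSN2 and GLYCAM1. Capitals mark the TTCNNNGAA match, which began 100 bases before the start in CSN1S1 (chr14:20638850-20639099, minus strand) and in CSN1S2B (chr14:20545619-20545868, minus strand), at nearly the same distance in CSN1S2A (chr14:20574472-20574721, minus strand), 97 bases in CSN2 (chr14:20601574-20601823, plus strand) and 175 in GLYCAM1 (chr7:136561300-136561549, minus strand).
CSN1S1: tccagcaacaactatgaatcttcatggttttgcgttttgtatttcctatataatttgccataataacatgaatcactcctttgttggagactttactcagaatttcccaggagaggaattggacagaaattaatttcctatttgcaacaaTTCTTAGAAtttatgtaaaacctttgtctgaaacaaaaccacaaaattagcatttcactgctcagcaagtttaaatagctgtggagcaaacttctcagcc
CSN1S2A: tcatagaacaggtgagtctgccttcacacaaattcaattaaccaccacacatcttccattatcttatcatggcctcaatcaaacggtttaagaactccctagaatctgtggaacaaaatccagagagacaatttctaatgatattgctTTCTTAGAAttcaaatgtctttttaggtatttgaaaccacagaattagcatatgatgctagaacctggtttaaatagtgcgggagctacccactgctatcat
CSN1S2B: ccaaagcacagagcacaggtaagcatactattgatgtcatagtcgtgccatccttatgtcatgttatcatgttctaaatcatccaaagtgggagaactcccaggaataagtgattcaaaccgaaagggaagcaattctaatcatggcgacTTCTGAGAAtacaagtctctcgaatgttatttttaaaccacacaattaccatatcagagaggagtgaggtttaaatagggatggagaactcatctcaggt
CSN2: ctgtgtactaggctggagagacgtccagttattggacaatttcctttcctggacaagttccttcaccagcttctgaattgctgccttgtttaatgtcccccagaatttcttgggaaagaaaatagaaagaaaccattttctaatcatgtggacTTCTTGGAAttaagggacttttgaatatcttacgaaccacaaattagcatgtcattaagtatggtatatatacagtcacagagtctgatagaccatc
GLYCAM1: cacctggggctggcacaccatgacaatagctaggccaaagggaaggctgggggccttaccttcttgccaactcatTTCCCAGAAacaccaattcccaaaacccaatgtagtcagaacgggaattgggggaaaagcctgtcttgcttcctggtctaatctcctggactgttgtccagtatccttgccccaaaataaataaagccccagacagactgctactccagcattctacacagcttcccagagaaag
The windows of WAP, CSN3 and LALBA, which also rose, held no match to TTCNNNGAA. The short SMAD motif CAGAC, searched on both strands, was present in 13720 of the 27457 promoters (49.97%), in 8 of the 18 TGF-beta targets that matched (44.4%) and in 9 of the 10 milk protein genes. A match is a description of the sequence and was not tested for binding.

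Summed over the list, milk protein transcripts made up 337, 321 and 364 per 10000 UMIs in vehicle rats and 551, 509 and 663 in TGFBRi rats. The groups did not overlap, with means of 341 ± 22.1 and 574 ± 79.5 (SD, n = 3 each) and an exact two-sided permutation p of 0.1, or 0.2 after adjustment over 6 lists. Single cells showed the same order when each was thinned to 4480 UMIs, which left out 688 sorted luminal cells with fewer. The loss was uneven, at 30, 74 and 27 cells in vehicle rats and 399, 59 and 99 in TGFBRi rats. Members were picked anew from the thinned counts, which left 280 of them in ACI12, against 380 before. The median cell held 223, 290 and 266 per 10000 in vehicle rats and 484, 415 and 575 in TGFBRi rats. Spread among cells was wide, with the 10th and 90th percentiles at 89.3 and 575 in ACI7 and at 230 and 1049 in ACI16. After thinning, WAP had a UMI in 21.2%, 14.4% and 23.6% of the members in vehicle rats and in 37.9%, 39.1% and 44.3% in TGFBRi rats. In mature luminal cells thinned alike the shares were 0.664%, 0.311% and 0.262% against 3.85%, 4.62% and 4.28%. Before thinning, members had WAP in 39.1%, 17.8% and 34.6% against 38.9%, 47.9% and 52.9%, so the deeply read vehicle rat ACI7 overlapped the TGFBRi rats. Mature luminal cells then had 1.76%, 0.435% and 1.03% against 4.00%, 5.72% and 5.69%, at median depths of 6080 to 14031 UMIs. Milk protein transcripts free in the cell suspension would add to both cell types, and their part in these values was not tested.

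**Figure D2:**
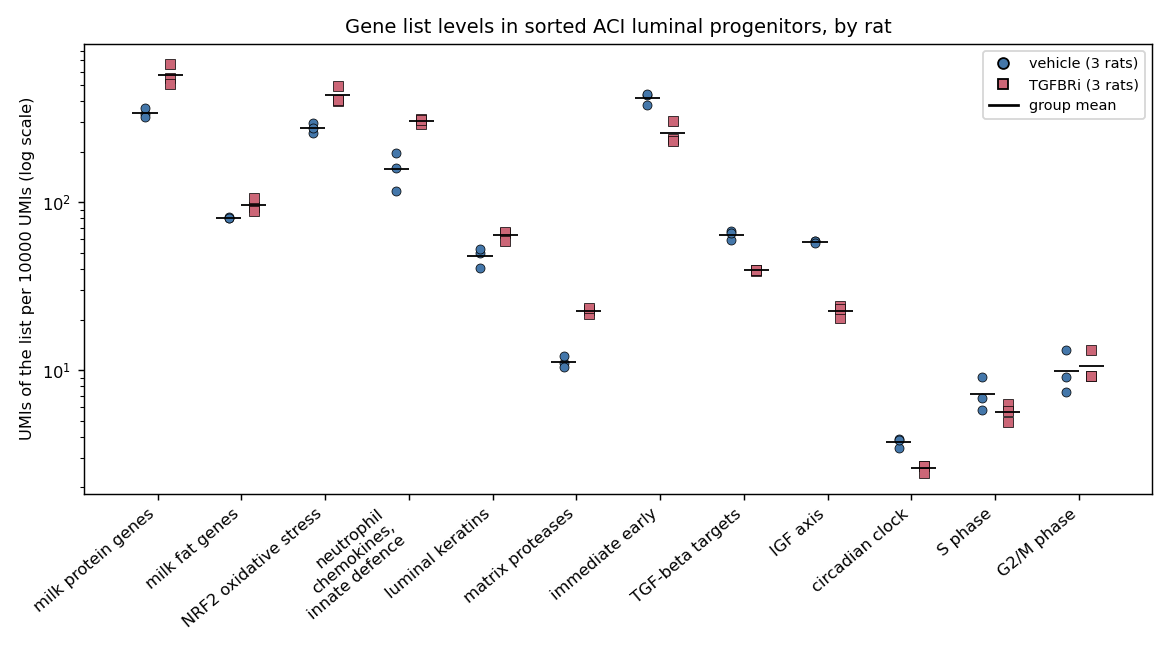
Points give the summed UMIs of 12 gene lists per 10000 UMIs (log scale) in luminal progenitors of each ACI rat, blue circles for vehicle, red squares for TGFBRi and black lines for group means. Milk protein genes lay at 321 to 364 in vehicle and 509 to 663 in TGFBRi rats, while immediate early genes and TGF-beta targets lay higher in vehicle rats. The sums are not scaled between libraries.

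Genes of milk fat were mixed. Of 22 tested, 7 were higher and 1 lower, with a median of 0.21. FASN, fatty acid synthase, was higher by 0.92 ± 0.16 (adjusted p = 0.00204), THRSP, which promotes lipogenic transcription, by 1.24 ± 0.15 (adjusted p = 0.000605) and FABP3, a fatty acid carrier, by 1.30 ± 0.57 (adjusted p = 0.0125). MFGE8, a protein of the milk fat globule that marks luminal progenitors, rose by 0.70 ± 0.14 (adjusted p = 0.00821). PLIN2, which coats the lipid droplet, had 1528, 1607 and 1191 CPM against 1554, 1332 and 1871 CPM, and the groups overlapped (adjusted p = 0.582).

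Regulators of the alveolar lineage went both ways, with 5 of 17 higher and 5 lower. CCND1, cyclin D1, needed for alveolar growth, was higher by 0.94 ± 0.15 (adjusted p = 0.00135), and CISH, a feedback target of STAT5, by 0.70 ± 0.19 (adjusted p = 0.00837). NFIB, a transcription factor that shares sites with STAT5 in milk genes, fell from 371, 359 and 389 CPM to 171, 227 and 218 CPM, a difference of -0.86 ± 0.14 (adjusted p = 0.00132). STAT5B fell by 0.63 ± 0.26 (adjusted p = 0.029; 0.157 without ACI9), while STAT5A differed by -0.24 and did not pass (adjusted p = 0.203). STAT5B also lost the call with cells thinned and with library sums thinned (adjusted p up to 0.178). Among the selecting markers, given here as description, KIT stood at 264, 282 and 278 CPM in vehicle and 190, 197 and 187 CPM in TGFBRi members, and ELF5 at 260, 240 and 226 CPM against 194, 234 and 213 CPM. BTN1A1 stood at 337, 381 and 370 CPM against 277, 293 and 376 CPM, and MUC15 at 278, 255 and 288 CPM against 202, 240 and 204 CPM. The 4 markers summed to 12.4 to 13.4 per 10000 UMIs of the members in vehicle rats and 8.09 to 8.68 in TGFBRi rats, and the median marker sum per member was 19, 9 and 13 UMIs against 5, 8 and 7. These sums decide membership, and their part in the share of members was not tested. Of 17 further luminal progenitor genes, which include CSN3 and MFGE8, 9 were higher and 1 was lower (median 0.53). The keratins of luminal cells were higher in 5 of 6. KRT8 had 2663, 2908 and 2114 CPM against 4329, 4518 and 4330 CPM, without overlap (0.78 ± 0.14, adjusted p = 0.00396), and KRT18 rose by 0.75 ± 0.15 (adjusted p = 0.00475).

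The TGF-beta pathway itself was followed in 3 lists. Of 23 tested target genes, 7 were lower and 1 was higher, with a median of -0.22. CCN2 (connective tissue growth factor), a classic target, stood at 13.7, 13.6 and 13.8 CPM in vehicle rats and 2.83, 3.47 and 2.48 CPM in TGFBRi rats. These groups did not overlap, and the difference was -2.19 ± 0.41 (adjusted p = 0.000605). THBS1, thrombospondin 1, which can activate latent TGF-beta, had 2235, 2884 and 1977 CPM against 1313, 1207 and 1691 CPM (-0.75 ± 0.17, adjusted p = 0.00972). LTBP2, a matrix protein of the family named for latent TGF-beta binding, fell by 0.72 ± 0.24 (adjusted p = 0.021). BHLHE40, a transcription factor of the clock, fell by 1.24 ± 0.31 (adjusted p = 0.00664). CDKN1A, the p21 inhibitor of the cell cycle, was the gene that rose, by 0.93 ± 0.18 (adjusted p = 0.00344). TAGLN and ACTA2, contractile genes that basal cells also express, were the other named falls, and ITGB6, an integrin subunit that activates latent TGF-beta, completed the 7 (adjusted p = 0.0562). ITGB6 and TAGLN lost the call under some alternatives, LTBP2 without ACI7 (adjusted p = 0.103), and ACTA2 without ACI7, ACI15 or ACI16 (adjusted p up to 0.240).

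Summed target genes made up 59.4, 67.6 and 65.3 per 10000 UMIs in vehicle rats and 38.7, 39.4 and 39.7 in TGFBRi rats. These sums are not scaled between libraries, and without scaling the median difference over all genes was -0.39. The groups did not overlap, and the exact permutation p was 0.1, or 0.2 after adjustment over the 6 lists. THBS1 held a large part of this sum. Feedback genes of the pathway had 1 of 10 higher and 2 lower. SKI, which represses SMAD complexes, fell by 1.16 ± 0.28 (adjusted p = 0.00161), and TGIF1, another SMAD corepressor, rose by 0.66 ± 0.16 (adjusted p = 0.00447). SMAD7, the inhibitory SMAD, differed by -0.22 (adjusted p = 0.45).

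Ligands, receptors and SMADs had 1 of 18 higher and 4 lower (median -0.13). TGFB3, a ligand, had 222, 204 and 248 CPM in vehicle and 154, 190 and 156 CPM in TGFBRi rats. It fell by 0.43 ± 0.14 (adjusted p = 0.0283), and this call was lost without vehicle rat ACI9 (adjusted p = 0.117). TGFB1 and TGFB2 differed by -0.71 and 0.12 and did not pass (adjusted p = 0.161 and 0.64). The receptors TGFBR1, TGFBR2 and TGFBR3 differed by 0.26, 0.00 and -0.24, with overlapping groups and adjusted p from 0.284 to 0.993. In thinned cells TGFBR3 had a UMI in 30.7%, 33.7% and 35.4% of the members in vehicle rats and 18.9%, 23.1% and 27.9% in TGFBRi rats. These shares, not scaled between libraries, did not overlap, while those of TGFBR1 and TGFBR2 did. SMAD4, the shared partner of the signalling SMADs, fell by 0.61 ± 0.19 (adjusted p = 0.00652), SMAD3 rose by 0.50 ± 0.24 (adjusted p = 0.0428), and INHBB, an activin subunit, fell by 0.78 ± 0.17 (adjusted p = 0.00301). Among BMP and ID genes 3 of 11 were lower. BMPR1B, a BMP receptor, fell by 1.27 ± 0.28 (adjusted p = 0.00141). ID2, a dominant negative helix-loop-helix factor required for alveoli, averaged 115 ± 18.6 CPM in vehicle and 84.1 ± 11.7 CPM in TGFBRi rats (SD, n = 3 each), without overlap (-0.44 ± 0.17, adjusted p = 0.0465). ID1 had 9.96, 26.7 and 24.5 CPM against 14.1, 2.97 and 7.79 CPM, so its groups overlapped at an adjusted p of 0.0528. The calls of ID1 and ID2 were lost under some alternatives, and that of SMAD3 without ACI9 or ACI16 (adjusted p = 0.121 and 0.137). SMAD3 also lost it with DESeq2, with a mature luminal sum of 0 and with thinned cells (adjusted p up to 0.356).

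**Figure D3:**
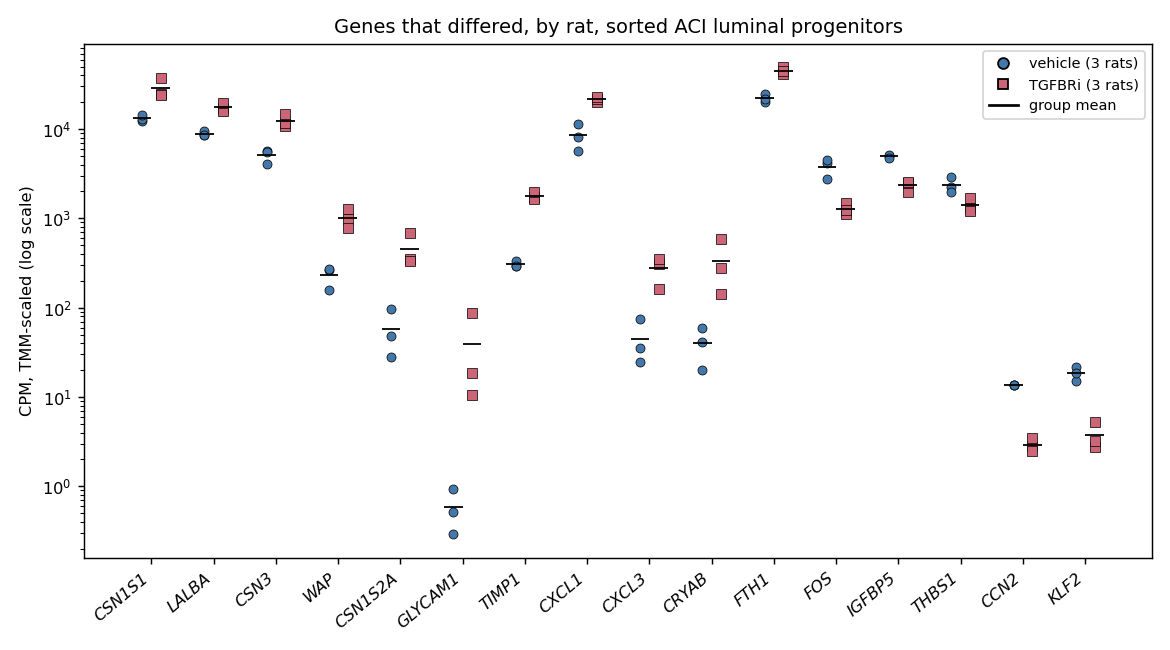
Points give 16 genes in luminal progenitors of each ACI rat in CPM (log scale), with blue circles for vehicle, red squares for TGFBRi and black lines for group means. In every gene shown the groups did not overlap, CSN1S1 through FTH1 lying higher in TGFBRi rats and FOS, IGFBP5, THBS1, CCN2 and KLF2 lower.

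TIMP1, which inhibits matrix metalloproteinases, stood at 291, 331 and 292 CPM in vehicle rats and at 1731, 1665 and 1964 CPM in TGFBRi rats. The rats of each group lay close together, and the difference of 2.55 ± 0.13 had an adjusted p of 7.9e-07. Matrix proteases and their inhibitors were higher in 7 of 16 and lower in 3. PLAUR, the urokinase receptor, rose by 1.14 ± 0.58 (adjusted p = 0.0402) and MMP3, a stromelysin, by 1.30 ± 0.38 (adjusted p = 0.012). The 3 that fell were the proteases ADAM10 and ADAMTS1 and TIMP3, an inhibitor of the same family as TIMP1, which had 141, 166 and 141 CPM against 65.5, 123 and 125 CPM (-0.50, adjusted p = 0.0926). TIMP3 lost the call without ACI7, ACI8, ACI9 or ACI12 (adjusted p up to 0.232), ADAMTS1 without ACI8, ACI12, ACI15 or ACI16 (up to 0.287) and PLAUR without ACI16 (0.134). PLAUR also lost it with DESeq2 (0.213), ADAM10 with a mature luminal sum of 0 (0.166) and ADAMTS1 without cells holding KRT14, KRT5 or ACTA2. Neutrophil chemokines and innate defence genes were higher in 10 of 19 and lower in 1, with a median of 0.59. CXCL1, a chemokine that draws neutrophils, had 8200, 11531 and 5735 CPM against 20064, 21600 and 22878 CPM, without overlap (1.34 ± 0.19, adjusted p = 0.00229). CXCL3, of the same family, had 74.7, 35.6 and 24.5 CPM against 163, 311 and 353 CPM (2.60 ± 0.57, adjusted p = 0.00121). CSF3, the granulocyte colony-stimulating factor, had 118, 137 and 55 CPM against 380, 551 and 499.8 CPM (2.24 ± 0.41, adjusted p = 0.000605), again with no overlap. CXCL2 rose by 1.64 ± 0.35 (adjusted p = 0.00168).

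Genes of the oxidative stress response driven by NRF2 were higher in 11 of 18, with a median of 0.55. FTH1, the ferritin heavy chain, was the most abundant transcript of the members in every rat. It had 20163, 24871 and 21664 CPM in vehicle rats and 49084, 41454 and 44683 CPM in TGFBRi rats (1.02 ± 0.13, adjusted p = 0.00231). HMOX1, heme oxygenase 1, rose by 1.61 ± 0.47 (adjusted p = 0.00377) and PRDX1, a peroxiredoxin, by 0.67 ± 0.14 (adjusted p = 0.00398). Heat shock genes were higher in 6 of 15, which changed to 2 higher and 2 lower without TGFBRi rat ACI16 and to 2 higher and 3 lower without scaling. CRYAB, a small heat shock protein, had 41.2, 58.6 and 20.3 CPM against 144, 278 and 585 CPM (3.15 ± 0.69, adjusted p = 0.0013), and the TGFBRi rats spread widely above the vehicle rats. Ribosomal protein genes were higher in 21 of 37 and respiratory chain genes in 11 of 34, with medians of 0.41 and 0.34. Without scaling these became 4 higher and 1 lower, and 3 higher and 4 lower. Without TGFBRi rat ACI12 they became 34 and 22 higher, and without ACI15 and ACI16 the respiratory chain had 5 and 6 higher.

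Immediate early genes, which answer within minutes to growth factors and to tissue dissociation, were lower in 9 of 25 and higher in 4 (median -0.32). FOS had 2752, 4133 and 4497 CPM in vehicle rats and 1109, 1504 and 1250 CPM in TGFBRi rats. The groups did not overlap, with a difference of -1.56 ± 0.18 (adjusted p = 0.000661). FOSB, its paralog, fell by 1.02 ± 0.14 (adjusted p = 0.00123) and KLF2, a zinc finger factor, fell by 2.32 ± 0.38 (adjusted p = 0.000605), from 15.3, 21.6 and 18.4 CPM to 5.25, 2.72 and 3.19 CPM. JUN and JUNB overlapped between the groups (adjusted p = 0.509 and 0.238), and DUSP1, a phosphatase that ends MAP kinase signals, rose by 0.86 ± 0.15 (adjusted p = 0.00199). Summed immediate early genes, not scaled between libraries, made up 377, 438 and 439 per 10000 UMIs against 238, 306 and 233 (exact permutation p = 0.1, adjusted over 6 lists 0.2).

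Growth factor and hormone genes contained further falls, to be read beside 12.5% lower over all tested genes. IGFBP5, a secreted binding protein for insulin-like growth factors that rises in involution, had 4958, 5174 and 4729 CPM in vehicle rats and 1997, 2494 and 2555 CPM in TGFBRi rats (-1.08 ± 0.13, adjusted p = 0.00103). IRS2, an adaptor of the insulin receptor, fell by 0.71 ± 0.15 (adjusted p = 0.00165), and these were the 2 lower genes of the 9 in the IGF axis. Of 8 hormone receptors 3 were lower, among them GHR, the growth hormone receptor (-0.76 ± 0.21, adjusted p = 0.00578), and NR3C2, the mineralocorticoid receptor (-1.56 ± 0.50, adjusted p = 0.00681). In the EGF family HBEGF, a ligand, rose from 818, 624 and 533 CPM to 1169, 1485 and 1520 CPM (1.08 ± 0.17, adjusted p = 0.00165), and EGFR, its receptor, fell by 0.79 ± 0.28 (adjusted p = 0.0241), a call that did not hold under every alternative. The EGF family had 2 higher and 1 lower of 11 and the Notch list 1 lower of 11, near the shares over all tested genes. Clock genes were lower in 7 of 17 and higher in 2 (median -0.39), with PER1, a repressor of the clock, at -1.25 ± 0.36 (adjusted p = 0.00431) and ARNTL, its activator, at -0.89 ± 0.29 (adjusted p = 0.0101). Glucocorticoid-responsive genes were higher in 8 of 14 and lower in 2, with FKBP5, a chaperone of the receptor, up by 1.59 ± 0.29 (adjusted p = 0.00125). Their summed transcripts, which are not scaled between libraries, lay lower in TGFBRi rats without overlap, at 54.2 to 58.2 per 10000 UMIs against 60.6 to 66.8. PDK4, the most abundant gene of the list and a kinase that restrains pyruvate oxidation, was among the lower genes at 2229, 2719 and 2196 CPM in vehicle and 1773, 1292 and 1999 CPM in TGFBRi rats (-0.50, adjusted p = 0.0536), a call lost without ACI8 or ACI15 (adjusted p up to 0.201).

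Cell cycle genes were low and uneven between rats. S phase genes were higher in 2 of 42 and lower in 7, with a median of -0.41, and summed to 9.08, 5.76 and 6.82 per 10000 UMIs in vehicle rats and 6.24, 5.66 and 4.89 in TGFBRi rats (exact permutation p = 0.2). G2/M genes were higher in 12 of 49 and lower in 4, with a median of 0.67, but their sums of 13.2, 7.38 and 9.10 against 13.1, 9.28 and 9.23 overlapped (exact permutation p = 0.6). The count of higher G2/M genes was 5 without TGFBRi rat ACI12, 6 without ACI16, 7 without vehicle rat ACI9 and 26 without ACI7. MKI67, the proliferation antigen, had 98, 3.75 and 28.8 CPM in vehicle rats and 71.9, 28.0 and 29.4 CPM in TGFBRi rats, so no difference was detectable at this spread (adjusted p = 0.882), although MKI67 passed as higher once every cell was thinned to 1 number of UMIs. GMNN, geminin, which blocks relicensing of DNA replication, rose by 1.71 ± 0.24 (adjusted p = 0.000605).

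Of 12 tested basal epithelial genes, 4 were lower and 1 was higher, with a median of -1.34. TAGLN, MYH11, ACTA2 and CNN1, contractile genes of basal cells, were the 4. TAGLN had 17.2, 4.69 and 7.09 CPM in vehicle rats and 4.45, 1.73 and 2.48 CPM in TGFBRi rats, and ACTA2 9.79, 1.88 and 4.34 CPM against 3.23, 1.49 and 0.708 CPM. Each of the 4 genes was highest in vehicle rat ACI7, and the groups overlapped in ACTA2 and not in the other three. Without ACI7 the list had 2 lower and 1 higher and a median of -0.37. The defining basal factor TP63 had 0 UMIs in 4 of the 6 libraries, 7 in ACI7 and 2 in ACI9. The summed list was at 2.00, 1.43 and 1.42 per 10000 UMIs in vehicle rats and 1.46, 1.33 and 1.02 in TGFBRi rats, which overlapped (exact permutation p = 0.3). Before thinning, ACTA2 had a UMI in 7.41%, 1.83% and 4.86% of the members in vehicle rats and 1.84%, 1.19% and 0.608% in TGFBRi rats. With the cells holding KRT14, KRT5 or ACTA2 left out, a choice made after seeing the data, 2994 genes passed the test over all genes, against 3141 with them. This count covers all genes and does not bear on these 4 genes. The part of basal cells in their falls was not tested.

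**Figure D4:**
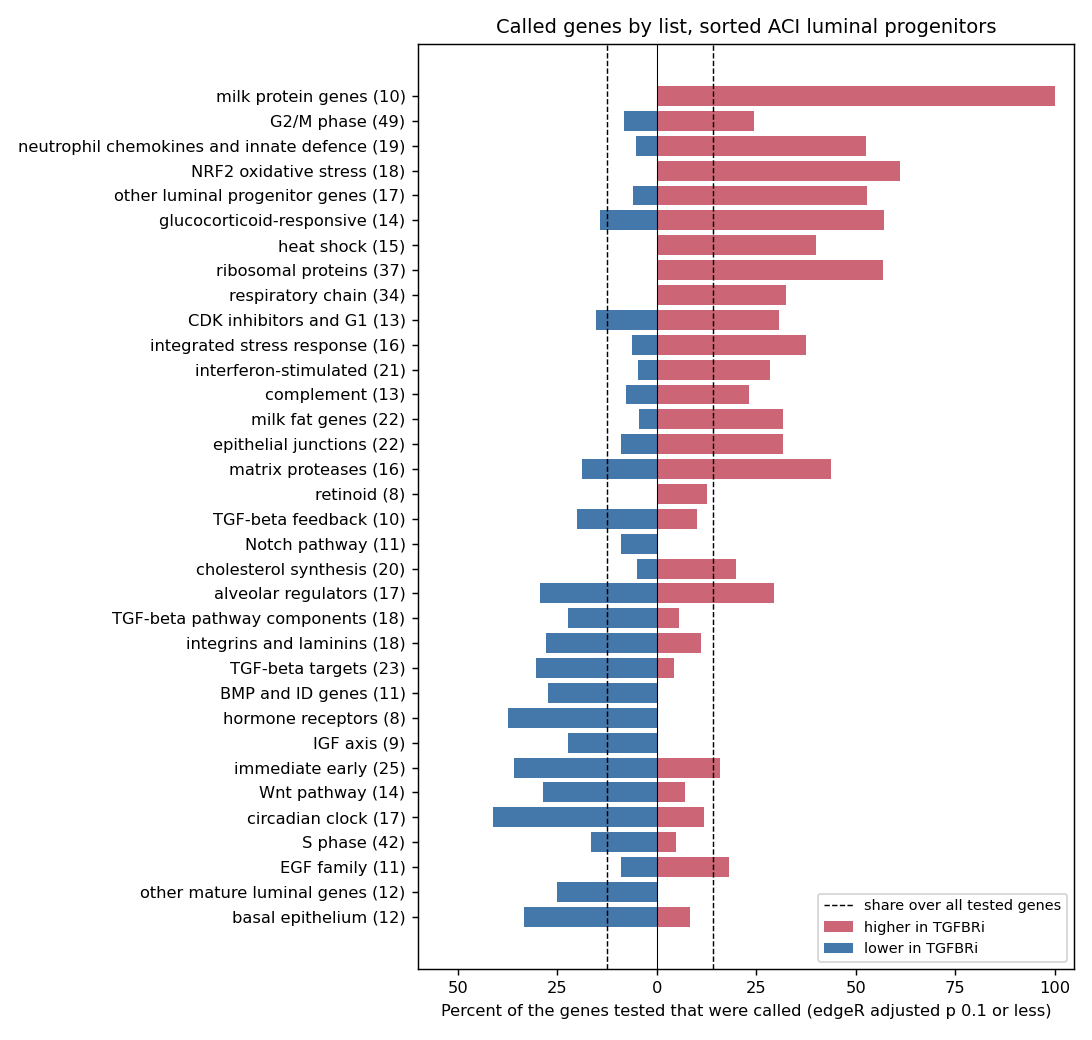
Bars give, for each gene list with at least 8 tested genes (number in brackets), the percent of genes higher (red, to the right) and lower (blue, to the left) in TGFBRi rats in ACI luminal progenitors. Dashed lines mark 14% higher and 12.5% lower over all tested genes, and milk protein genes reach 100% higher, 10 of 10.

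By size alone, the largest rises with enough UMIs and no overlap were GLYCAM1, GSC (3.45 ± 0.33), AABR07065429.1 (3.25 ± 0.80), MAL (3.18 ± 0.75), CRYAB, CSN1S2A, HIC1 (3.04 ± 0.86), SFTPD (2.68 ± 0.45), CXCL3 and TIMP1. GSC, the homeobox factor goosecoid, had 4.12, 7.03 and 2.03 CPM in vehicle rats and 39.6, 32.7 and 51 CPM in TGFBRi rats (adjusted p = 0.000275). MAL, a proteolipid of apical sorting, and HIC1, a transcriptional repressor, had 2.92 to 10.3 and 1.01 to 10.1 CPM against 17.8 to 54.9 and 31.2 to 59.5 CPM. SFTPD, a collectin of innate defence, had 1.16 to 4.22 CPM against 11.3 to 14.1 CPM. The largest falls were KLF2, LOC102549173.4 (-2.29 ± 0.83), LMCD1 (-2.27 ± 0.63), CCN2, PIK3CG (-2.13 ± 0.68), SOX5 (-2.06 ± 0.49), FAM71A (-2.0 ± 0.29), SOX6 (-1.96 ± 0.58), GCNT1 (-1.92 ± 0.40) and TAGLN. SOX5 and SOX6, paired transcription factors of the SOXD group, had 7.38, 11.7 and 9.12 CPM and 8.07, 4.22 and 6.66 CPM in vehicle rats. In TGFBRi rats they had 1.62, 2.23 and 2.48 CPM and 0.808, 2.48 and 1.42 CPM, both without overlap. SOX6 and LOC102549173.4 lost the call under some alternatives. These levels are low, so the ratios carry wide errors.

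The response of luminal progenitors was set against that of mature luminal cells of the same rats and libraries, where 3437 of 12780 genes (26.9%) passed. The rat was a block in this fit, and the test of the difference between both responses called 439 of 13473 genes (3.26%), 209 (1.55%) with a more positive and 230 (1.71%) with a more negative response in luminal progenitors. TIMP1 rose by 1.09 in mature luminal cells, and the response of luminal progenitors was larger by 1.47 (adjusted p = 1.61e-06). CXCL3 had 36 to 149 CPM in mature luminal cells and did not differ between the groups there (0.02), so the responses differed by 2.5 (adjusted p = 3.65e-09). CXCL6, an epithelial chemokine, stood at -1.89 in mature luminal cells and was higher in luminal progenitors by 2.38 ± 0.82, a difference of 4.12 (adjusted p = 7.5e-06). CXCL1, CXCL2 and CSF3 rose in mature luminal cells as well, by 1.71, 2.74 and 2.61 (adjusted p = 0.000346, 0.000346 and 0.0119). Of the 17 neutrophil chemokine and innate defence genes tested there, 5 were higher and 5 lower, beside 14.4% and 12.5% over all genes. FTH1, KRT8, CRYAB and FKBP5 also rose in mature luminal cells, by 1.18, 0.85, 4.95 and 2.87. The responses of CCND1, FOS and FOSB also differed between both cell types, by 0.63, -1.13 and -0.74 (adjusted p = 0.00102, 0.000268 and 0.000594).

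In 6 of 10 tested milk protein genes the log2 response of luminal progenitors was smaller than that of mature luminal cells, against 1.71% of all tested genes. GLYCAM1 had a log2 response of 6.24 in luminal progenitors and 4.90 in mature luminal cells, and the difference of 1.26 did not pass (adjusted p = 0.938). In mature luminal cells it was at 0 CPM in every vehicle rat and at 0.151, 1.35 and 0 CPM in TGFBRi rats. It reached the filter there only through the TGFBRi rats, so the fitted 4.90 has no exact size. WAP was at 1.69, 0.399 and 0.747 CPM in mature luminal cells of vehicle rats and 20.8, 75.8 and 41.6 CPM in those of TGFBRi rats, and the response of luminal progenitors minus that of mature luminal cells was -3.24 (adjusted p = 0.00298). Summed milk protein transcripts were at 4.78 to 8.66 per 10000 UMIs in mature luminal cells of vehicle rats and 20.3 to 34.7 in TGFBRi rats, far below the 321 to 663 of the luminal progenitors. CCN2 had 0.187 to 1.37 CPM in mature luminal cells of vehicle rats and 0.187 to 4.53 CPM in TGFBRi rats, and its responses differed by -3.21 (adjusted p = 0.0121). TGFBR2 was lower in mature luminal cells at -0.71 and at 0.00 in luminal progenitors, and the responses differed by 0.72 (adjusted p = 0.092). For IGFBP5 the difference of -0.61 did not pass (adjusted p = 0.101).

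In SD luminal progenitors 3842 of 13257 genes (29%) passed. The test of the difference between the ACI and SD responses called 0 of 13455 genes in edgeR (0%), with 1379 at an unadjusted p under 0.05, while DESeq2 called 14. The biological coefficient of variation was 0.133 in ACI and 0.359 in SD luminal progenitors. Among the genes tested in both strains, 1604 were called in both, which is 51.2% of the ACI calls and 43.2% of the SD calls, and 1585 of these had the same direction. WAP had 91.8, 151 and 172 CPM (lowest, median and highest) in SD vehicle rats and 536, 847 and 1252 CPM in SD TGFBRi rats, a difference of 2.67 (adjusted p = 0.0139). CSN3 rose in SD rats by 1.81 (adjusted p = 0.0139). CCN2 and IGFBP5 stood there at -1.84 and -1.22 (adjusted p = 0.0438 and 0.0425). TIMP1 was higher by 1.07 (adjusted p = 0.0824), and CXCL1 differed by 0.76 without passing (adjusted p = 0.244), its 6 TGFBRi rats ranging from 3183 to 18272 CPM. CRYAB differed by 0.14 (adjusted p = 0.87). By list, against 15% higher and 14% lower over all genes tested in SD rats, milk protein genes were higher in 8 of 10 (median 2.46), TGF-beta targets lower in 7 of 22 and higher in 3, and NRF2 genes higher in 9 of 18. Neutrophil chemokines and innate defence genes were higher in 1 of 19. S phase and G2/M genes were higher in 17 of 42 and 28 of 49 in SD rats, whereas in ACI rats the counts were 2 and 12. None of these differences in count between strains was tested as such.

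**Figure D5:**
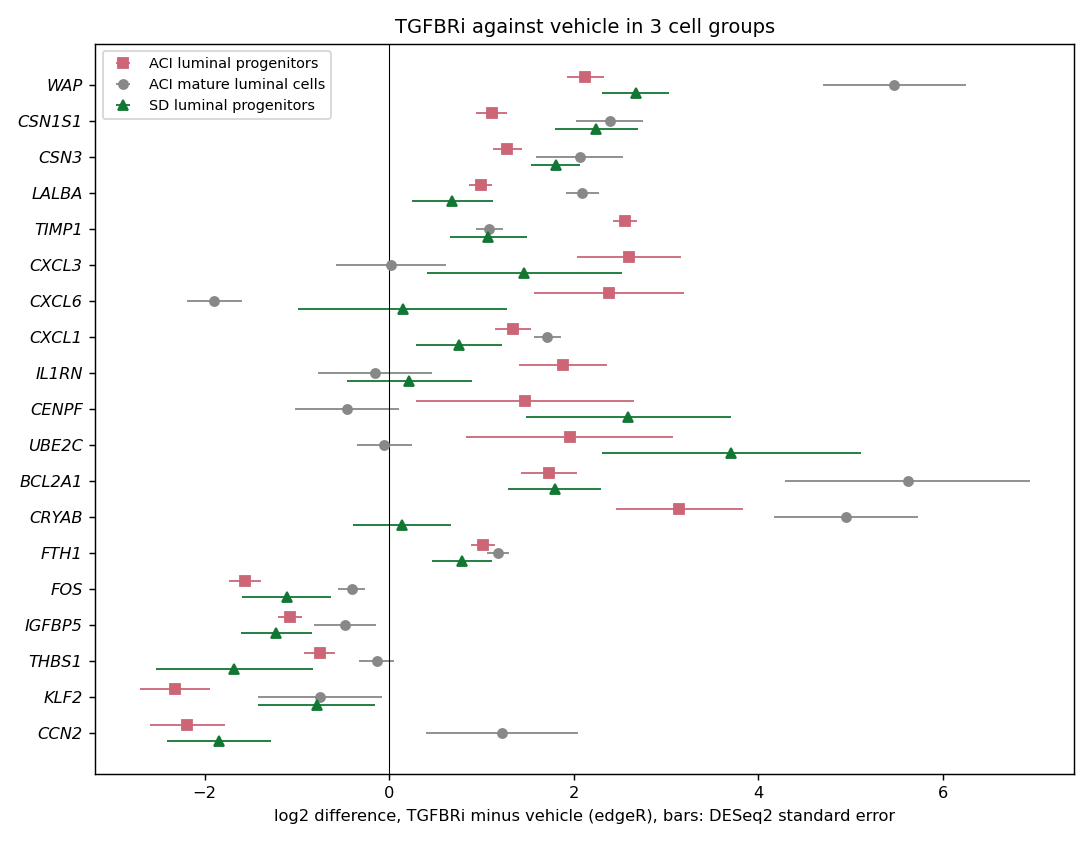
Points give the log2 difference, TGFBRi minus vehicle, of 19 genes in ACI luminal progenitors (red squares), ACI mature luminal cells (gray circles) and SD luminal progenitors (green triangles), with bars of 1 DESeq2 standard error. WAP lies at 2.13, 5.47 and 2.67 and TIMP1 at 2.55, 1.09 and 1.07, while CXCL6 is positive in ACI luminal progenitors and negative in mature luminal cells.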

How the data were processed

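Libraries were prepared with 10x Genomics 3′ chemistry, and per the submitters' processing notes Cell Ranger 4.0.0 aligned reads to rat build rn6. The authors removed cells with few genes, a high mitochondrial share, a PTPRC read or hardly any keratin reads. They also removed the few cells that clustered with the other sort, and deposited raw UMI counts per gene and cell. The tables hold no mitochondrial genes, doublets were gated out by light scatter when cells were sorted, and no removal of doublets from the sequenced cells was stated. Counts of the members were summed per rat. Genes with at least 10 UMIs over the libraries were tested with edgeR 4.0.16 (quasi-likelihood test, TMM, Benjamini-Hochberg adjusted p at most 0.1) in R 4.3.3. Standard errors came from DESeq2 1.42.0. The fit of treatment in luminal progenitors used ACI rats, and p-values measure the spread between 3 rats per group.

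Luminal progenitors and mature luminal cells came from the same rat and library, which pairs them, so the rat was a block in that comparison. Strains were compared by an interaction term. Shares and list levels were compared by exact two-sided permutation tests (scipy 1.17.1). The selecting genes were described and not tested between groups. Scrublet in scanpy 1.11.5 called between 0% and 18.4% of the cells doublets, depending on the library, so the cells with the highest 6% of scores were left out as an alternative. The scripts were tested on simulated data. The members and lists were chosen with earlier results of these data known. Named were the 10 largest changes per direction with a mean of at least 20 UMIs per library in the higher group and no overlap, the 5 largest differences in response per direction, up to 4 called and the 2 most abundant genes per list, the selecting genes and TGF-beta components. Further members were named, after their values were seen, to complete a list's count. Leaving scaling out and leaving out cells with KRT14, KRT5 or ACTA2 were chosen after seeing the data.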

Additional observations from a re-analysis of the deposited data

Results flagged for a closer look

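The response to TGFBRi differed between luminal progenitors and mature luminal cells of the same ACI rats in 439 genes, by a test of the difference itself in edgeR with the rat as block. The values given here are the log2 response of luminal progenitors minus that of mature luminal cells. On the positive side lay CXCL6 at 4.12, CXCL3 at 2.5, UBE2C, a ubiquitin-conjugating enzyme of mitosis, at 2.05, CENPF, a kinetochore protein, at 1.99 and IL1RN, the interleukin-1 receptor antagonist, at 1.87. UBE2C had 4.81, 0 and 1.16 CPM in vehicle luminal progenitors and 14.1, 5.94 and 8.85 CPM in TGFBRi ones, and CENPF overlapped between the groups. The rise of UBE2C and CENPF in luminal progenitors was lost without TGFBRi rat ACI12. On the negative side lay HBA-A2, a hemoglobin chain of red blood cells, at -6.00, BCL2A1, an inhibitor of apoptosis, at -3.92, CSAP1 at -3.54, WAP at -3.24 and CCN2 at -3.21. HBA-A2 stood at 105.4 CPM in luminal progenitors of vehicle rat ACI9 and at 0 to 11.7 CPM in those of the other 5 rats. BCL2A1 rose in luminal progenitors (1.73) and in mature luminal cells (5.62), where vehicle rats had 0 to 0.187 CPM. It reached the filter in mature luminal cells only through the TGFBRi rats, so neither 5.62 nor the difference has an exact size. CSAP1 had 391, 53.4 and 75.9 CPM in vehicle luminal progenitors against 379, 241 and 107.3 CPM in TGFBRi ones, and the groups overlapped. In mature luminal cells CSAP1 had 0 to 0.632 CPM in vehicle rats and 0.747 to 9.18 CPM in TGFBRi rats. HBA-A2 had 0 to 0.105 CPM and 0.302 to 0.903 CPM there. Both genes reached the filter in mature luminal cells only through the TGFBRi rats, so their differences have no exact size either.

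Among the 6 TGFBRi-treated SD rats, 1 rat lay far above the other 5 in luminal progenitors for TIMP1 (3421 CPM, median 1379 CPM) and for CXCL1 (18272 CPM, median 7216 CPM). Chance alone marks about 1 in 20 such groups.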

How the results depend on the processing

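The count of 3141 genes that differed between TGFBRi and vehicle luminal progenitors was 2033 with DESeq2, lay between 2236 and 2805 when 1 rat was left out, and under the other settings, with cells or libraries thinned, doublet scores, stricter members, other filters or scaling, between 2207 and 4699. Of 151 genes chosen by the naming rule that passed, 117 passed under every setting other than unscaled sums, 34 lost the call at least 1 time, and 22 lost it with unscaled sums. Of 11 further named genes that passed, 9 lost the call at least 1 time, and FABP3 and OLAH kept it. The 439 genes that responded differently in luminal progenitors and mature luminal cells became 138 with DESeq2, 683 without the filter on low counts and 29 when the pairing by rat (the replicate block) was dropped. Leaving out 1 rat gave 227 to 474, with 258 without ACI12 and 227 without ACI16. The strain comparison gave 0 genes under every edgeR setting and 14 with DESeq2. The difference in share of -5.23 points turned to 4.65 when members had to lack mature luminal UMIs. It ranged from -11.7 to 1.68 with 1 rat left out, positive without ACI9. The G2/M difference of 0.643 per 10000 UMIs ranged from -0.644 (without ACI12) to 2.30, and was -0.612 without ACI8. MKI67, which did not pass at -0.16, stood at 1.16 and passed with cells thinned to 1 number of UMIs. HBA-A2, which rested on ACI9, turned to 4.30 in luminal progenitors without mature luminal UMIs, and its difference in response to 1.64 without ACI9. The cause of the other shifts was not tested. With 3 rats per group and members with medians of 6426 to 15384 UMIs, genes of a few CPM were at the limit of what the depth allows.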

Other observations

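Further gene lists in luminal progenitors were counted beside the 14% higher and 12.5% lower over all tested genes. Interferon-stimulated genes were higher in 6 of 21 and lower in 1. IFI27, an interferon-induced membrane protein, had 446, 461 and 365 CPM in vehicle rats and 899.7, 835 and 847 CPM in TGFBRi rats (1.02 ± 0.13, edgeR adjusted p = 0.000661). Epithelial junction genes were higher in 7 of 22 and lower in 2. CLDN4, a tight junction claudin, had 3373, 3934 and 2369 CPM against 6230, 5786 and 5215 CPM, without overlap (0.83 ± 0.17, adjusted p = 0.00779), and CGN, the junction protein cingulin, fell by 0.77 ± 0.17 (adjusted p = 0.00237).

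Integrins and laminins were lower in 5 of 18 and higher in 2, and Wnt pathway genes were lower in 4 of 14 and higher in 1. LRP6, a Wnt coreceptor, fell by 0.54 ± 0.16 (adjusted p = 0.00957), and SFRP1, a secreted Wnt inhibitor, rose by 0.51 ± 0.14 (adjusted p = 0.0112). Cholesterol synthesis genes were near these shares, with 4 of 20 higher, 1 lower and a median of -0.05. INSIG1, a sterol sensor of the endoplasmic reticulum, rose by 1.31 ± 0.23 (adjusted p = 0.00123). Genes of the integrated stress response were higher in 6 of 16 and lower in 1, among them PHGDH, the first enzyme of serine synthesis, at 1.06 ± 0.24 (adjusted p = 0.00412). Without scaling the counts were 3 higher and 2 lower with a median of -0.01, and the summed list, not scaled between libraries, averaged 22.95 per 10000 UMIs in TGFBRi rats and 25.3 in vehicle rats, with overlap.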
